A study of Triticum aestivum with 3 samples.

Results

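The regions described here are the isolated mock-free TaSPL6-D CUT&Tag regions on the A subgenome of bread wheat (Triticum aestivum). A region was kept where overlapping peaks of both replicate lists merged into 1 interval with no peak of the mock list. It had to lie on chromosomes 1A to 7A, with its midpoint over 10 kb from that of any other kept region. There were 1210 such regions, out of 7403 regions shared by the replicates over the whole series, of which 5957 were mock-free. On the 7 A chromosomes, merging gave 3666 intervals, and 49.6% of them held a peak of both replicates. Of those 1817 shared regions, 88.7% had no mock peak, and of the resulting 1611, 75.1% were isolated. These shares were set by the choice itself and are descriptions. The members were chosen by the peak calls in the 3 lists and by the spacing of the regions, so height, fold enrichment and width are described without a test, whereas distance to genes and position along the chromosome did not enter the choice.

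Bread wheat is a hexaploid that carries 3 related subgenomes, A, B and D, so most genes exist in homoeologous copies on chromosomes of the same group. TaSPL6-D is a member of the SBP-box family (SQUAMOSA promoter binding protein-like), transcription factors found only in plants whose zinc-binding SBP domain recognises a short DNA core. Members of the family are known in cereals for their part in the change from juvenile to adult growth, in tillering and in panicle and spike architecture.

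The samples were protoplasts isolated from wheat seedlings and transformed in PEG solution, that is, cells without walls that hold a construct for a short time. In CUT&Tag an antibody leads a transposase to chromatin in intact nuclei, and the fragments it releases are sequenced. There were 2 TaSPL6-D CUT&Tag libraries, called replicate 1 and replicate 2, and 1 mock library, which the labels also call input. The protocol names an anti-GFP antibody and a control IgG without saying which library received which, and it does not describe the construct or the tissue of the seedlings.

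The 2 replicate lists coincided base by base more closely than either did with the mock. Among 1190 members with a single peak in each list, 36.1% had the same start and 33.0% the same end in both replicates. Both ends were identical in 183 members (15.4%, Wilson 95% interval 13.4 to 17.5%), and the summit was the same base in 34.5%. On the A chromosomes, replicate 1 and mock peaks that overlapped shared their start in 3.94% of 203 pairs and both ends in 1 pair. Replicate 2 and mock peaks shared their start in 2.63% of 190 pairs and both ends in 0, which allows a share of up to 1.98% by Wilson's interval. Mock pairs were taller, so pairs of over 40 fragments in both lists together were also compared. There the start was shared in 17.9% of 123 members, against 3.38% of 148 pairs of replicate 1 with the mock.

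The lists were not copies of each other. Of the 225 replicate 1 peaks of over 40 fragments on A, 17 had no overlapping peak in replicate 2, and the tallest of these had 550 fragments. From 21 to 40 fragments, 143 of 481 replicate 1 peaks had none. In the other direction, all 112 replicate 2 peaks of over 40 fragments overlapped a replicate 1 peak, and 8 of 265 from 21 to 40 fragments did not. The members were chosen by a call in both lists, so regions where the lists disagreed are not among them. Values are therefore given for each list without an SD. Summit fragments were equal in number in both lists in 24.9% of the 1190 members with a single peak in each. Around a constant ratio between the lists their chi-square per degree of freedom was 0.345, where sampling noise alone gives 1. In the 123 members of over 40 fragments in both lists together it was 0.704. In 164 A regions of that height with a mock peak it was 1.25. The members' values also carry their choice by a call in both lists. Whether the libraries share fragments was not tested, since the lists hold no reads. A call in both lists is not taken here as independent evidence of recurrence.

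Most members were low. At the summit, replicate 1 had a median of 11 fragments (quartiles 9 and 14, highest 513) and replicate 2 a median of 10 (8 and 13, highest 364). The median deposited fold enrichment was 6.08 in replicate 1 and 6.04 in replicate 2, with lowest values of 2.03 and 1.86 and highest of 49.1 and 45.5. A fold of at least 10 was reached by 130 members in replicate 1 and by 83 in both lists. In 484 members (40.0%) the local background of replicate 1 was at the lowest value of that library, 0.643 fragments, so their fold rests on the number of fragments alone. Across the 1210 members the log2 fold of the lists had a Pearson r of 0.87 and a Spearman rho of 0.79. Among the 847 members of 13 or fewer fragments these were 0.67 and 0.66. The points share the libraries and the peak caller, and the correlations are descriptions.

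**Figure D1:**
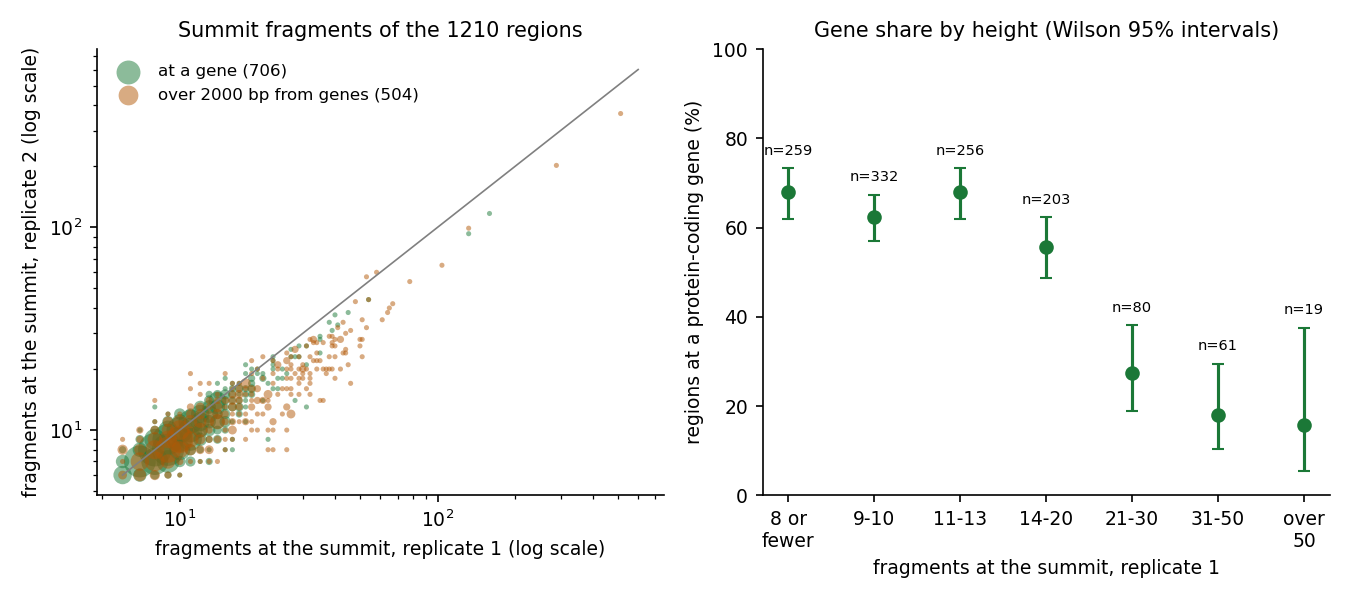
Left, fragments at the summit in replicate 1 and replicate 2 for the 1210 regions, both on log scales, with point area proportional to the number of regions at that pair of values and a line of equal values. Right, the share of regions at a protein-coding gene by fragments in replicate 1, with Wilson 95% intervals: it lay between 55.7% and 68.0% up to 20 fragments and between 15.8% and 27.5% above.

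Members were narrow, with a median merged width of 320 bp (quartiles 236 and 453) and a range from 159 to 1900 bp. The widest lay on chromosome 7A, 567418789 to 567420688, 125 bp outside the gene LOC123148300, with folds of 6.34 in replicate 1 and 6.17 in replicate 2. Only 20 members held more than 1 peak of a replicate. Wider members were taller: the median number of replicate 1 fragments was 9 in the 374 members up to 250 bp and 18 in the 15 members over 1000 bp. The share at genes changed little over these classes, with 206 of 374 (55.1%) in the narrowest and 9 of 15 in the widest (Wilson 35.7 to 80.2%).

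The first question asked of the members was where they lay relative to genes. The summit of replicate 1 lay in a protein-coding gene or within 2000 bp of one in 706 members (58.3%, Wilson 55.5 to 61.1%). Such sequence makes up 5.10% of the positions of the A chromosomes, so the share was 11.5 times that of length. Length here counts all positions, and at which of them reads could be placed is not known. The 274 mock peaks on A, not filtered for isolation and with a median of 16 mock fragments, had 15.0% at genes. Gene bodies held 521 summits (43.1%), against 2.83% of length. Within 500 bp of a gene edge lay 312 summits (25.8%, Wilson 23.4 to 28.3%), against 1.27% of positions, a ratio of 20.4. These intervals take regions as independent and cover counting error only. The share at genes depended on height: when both replicate lists were cut to as many peaks as the mock list, the same steps gave 73 regions, which met 54 of the members, and 9.59% of the 73 lay at genes.

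Around genes, 2 stretches held the most members for their length, the edges and the deep interior. From the edge to 500 bp inside lay 189 members, 24.1 times the share of length, and from the edge to 500 bp outside lay 123, a ratio of 16.5. Inside genes the ratio was 5.49 between 1000 and 2000 bp from the edge and 29.2 between 5000 and 8000 bp, where 58 members lay. Outside genes it was 3.88 from 500 to 1000 bp, 1.25 from 5000 to 10000 bp and 0.278 beyond 100000 bp. That last class still held 155 members (12.8%), because it covers 46.0% of the A chromosomes. The gene table gives no strand, so starts and ends of genes were not told apart.

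**Figure D2:**
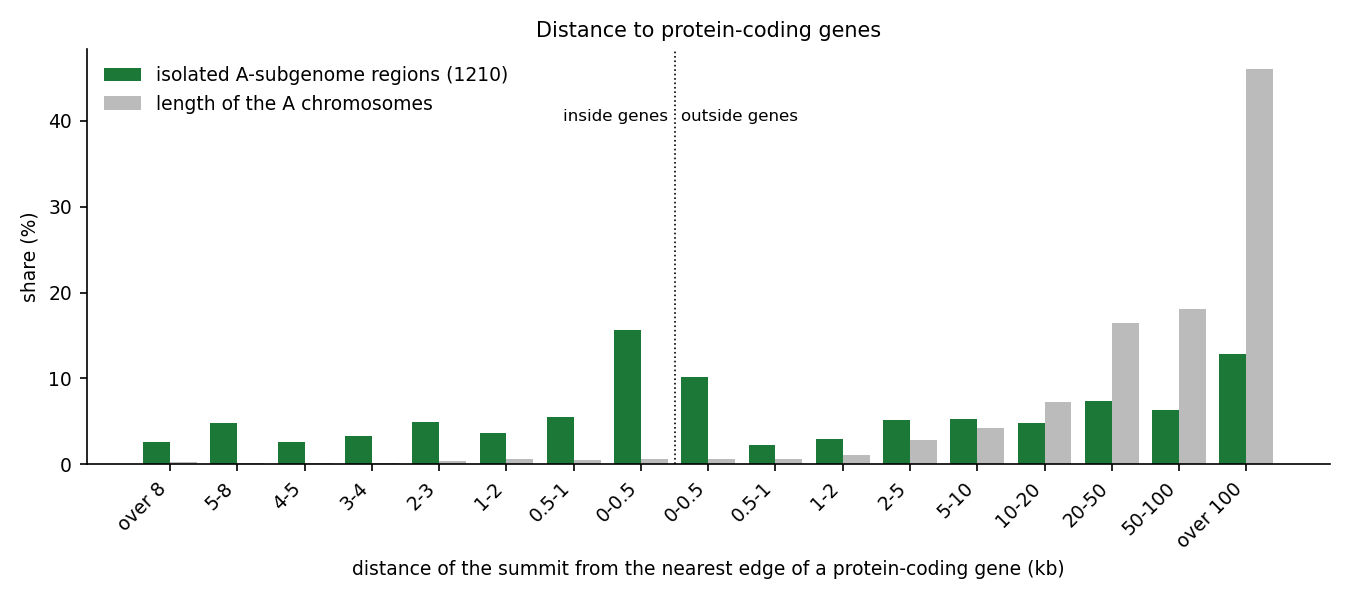
Share of the 1210 regions (green) and of the length of the A chromosomes (grey) by distance of the replicate 1 summit from the nearest edge of a protein-coding gene, inside genes on the left of the dotted line and outside on the right. Regions exceed length in every class up to 10 kb outside a gene and fall below it in every class beyond.

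A summit deep inside a gene can by definition lie only in a long gene, so genes at a member were counted by length. Among A-subgenome genes of over 16000 bp, 105 of 892 were at a member (11.8%), and among those of 8000 to 16000 bp 133 of 2559 (5.20%). In the shorter classes the share was 1.92% from 4000 to 8000 bp (156 of 8136 genes) and 1.87% up to 2000 bp (204 of 10917), and from 2000 to 4000 bp it was 159 of 10632 genes, beside 2.28% of all A-subgenome protein-coding genes. Long genes offer more sequence, so summits were also counted per Mb of gene body. The density was 8.59 per Mb in genes up to 2000 bp, 2.85 from 2000 to 4000 bp and lower from 4000 to 8000 bp, 4.16 from 8000 to 16000 bp and 4.32 above. Summits thus were densest in the shortest genes, and the middle lengths had fewer per Mb than the longest.

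Within long genes the summits were sparser near the edges than inside, the other way round from short genes. In A-subgenome genes of 8000 to 16000 bp, 7 summits lay in the outer 1000 bp at each end (1.37 per Mb) and 87 lay at least 2500 bp inside (6.05 per Mb). In genes of over 16000 bp the densities were 2.24 per Mb in the outer parts, from only 4 summits, and 4.52 per Mb inside, from 93. In genes up to 4000 bp there were 7.29 per Mb between 250 and 500 bp from an edge and 0.861 between 1500 and 2000 bp. Isolated regions of the other subgenomes had the same order in genes of 8000 to 16000 bp. B had 5.38 per Mb at 2500 bp or more inside and 1.70 in the outer 1000 bp, and D had 4.57 and 2.00. No test was made of these differences.

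**Figure D3:**
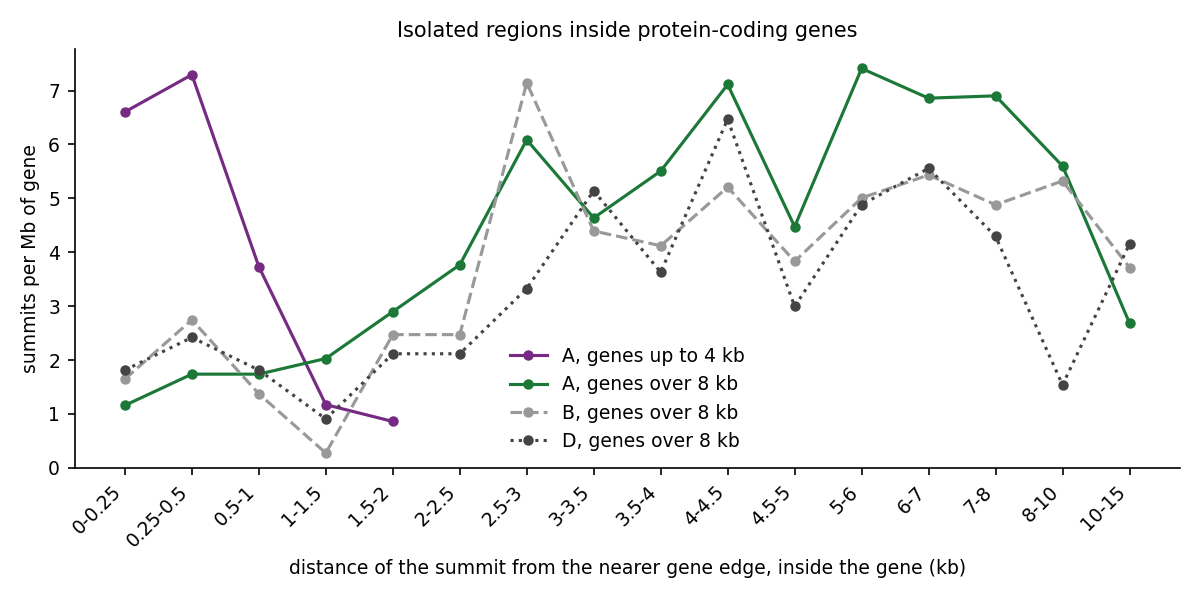
Summits per Mb of gene by distance from the nearer gene edge, for isolated regions in A-subgenome genes up to 4 kb (purple) and over 8 kb (green), and in B (dashed) and D (dotted) genes over 8 kb. In short genes the density is highest within 0.5 kb of an edge, whereas in long genes it is below 3.0 per Mb within 1.5 kb of an edge and reaches 7.41 per Mb on A from 5 to 6 kb inside.

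Interior and edge members were alike in height. The 194 members at least 2500 bp inside a gene had a median of 11 fragments in replicate 1 and 10 in replicate 2, and the 312 near an edge had 10 and 9. The median fold of the interior members was 5.72 in replicate 1 and 5.53 in replicate 2. That of the edge members was 6.08 and 5.90. Of the interior members 22.7% had the lowest background of replicate 1, against 36.2% of those near an edge. They differed in place: 6.70% of the interior members lay in the outer 10% of a chromosome at either end, against 33.0% of the edge members.

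Members at genes and away from them differed in height. The 706 at genes had a median of 10 fragments in replicate 1 and 9 in replicate 2, and folds of 5.94 and 5.76. The 504 over 2000 bp from any gene had 12 and 10 fragments and folds of 6.69 and 6.71. Over 20 replicate 1 fragments were found in 36 of the members at genes (5.10%) and in 124 of the others (24.6%). Read by height, the share at genes was 68.0% (Wilson 62.0 to 73.3%) in members of 8 or fewer fragments, 27.5% (18.9 to 38.1%) from 21 to 30 fragments and 15.8% (5.52 to 37.6%) above 50. The call in both lists chose the members by this height, so no test is given.

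Members tall in replicate 1 had a higher ratio of replicate 2 to replicate 1 fragments at genes than away from them. Among members of over 20 replicate 1 fragments, the median ratio of replicate 2 to replicate 1 fragments was 0.802 at the 36 gene members (quartiles 0.716 and 0.86) and 0.646 at the 124 others (0.548 and 0.745). The limit was set on replicate 1 alone, which by itself can lower the ratio, and median replicate 1 fragments were 27.5 and 32. From 21 to 30 fragments the ratio was 0.811 at 22 gene members and 0.667 at 58 others. The gene members of over 20 fragments were wider, at a median of 490.5 against 331.5 bp. They stood on a higher background, 3.03 against 1.34 fragments in replicate 1. On B the ratio in regions of over 20 fragments was 0.774 at genes and 0.639 away, and on D it was 0.826 and 0.686. Summits at genes coincided more often. Among members with a single peak in each list, the same base was the summit in both for 43.1% of 696 at genes. Within 500 bp of an edge this share was 47.6% of 309, and over 2000 bp from a gene it was 22.5% of 494. At 10 or fewer replicate 1 fragments the shares were closer, 44.8% of 382 at genes, 46.1% of 180 near edges and 37.4% of 206 away from genes.

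The absence of a mock peak has to be read against the mock's reach. At the 206 A-subgenome shared regions that overlapped a mock peak, mock fragments came to a median of 0.333 times those of replicate 1, and the fewest fragments of any mock peak on A were 5. A member of median height would have 3.67 fragments at that ratio. Only 297 of the 1210 members would reach 5. The ratio had quartiles of 0.25 and 0.533, comes only from regions with a mock peak, and was the only one tried. The lowest backgrounds, 0.36 fragments in the mock and 0.643 in replicate 1, stand in a higher ratio, at which more members would reach 5. Regions with a mock peak were taller, with a median of 44.5 fragments in replicate 1, a height that 26 members reached. They were also rarer at genes, with 22 of 206 (10.7%, Wilson 7.16 to 15.6%). The 401 mock-free A regions with a neighbour within 10 kb had 46.6% at genes (41.8 to 51.5%) and a median of 20 fragments in replicate 1. Peaks of replicate 1 alone on A had 46.9% of 1602 at genes and a median of 9 fragments.

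The members lay at 757 protein-coding genes, called target genes here, which are 2.28% of the 33136 on the A chromosomes. A single gene was at 651 members, 2 genes at 53 and 3 genes at 2. Target genes had a median length of 4276 bp (quartiles 1871 and 9520), against 2981 bp (1654 and 4945) for all A-subgenome genes. Of the target genes 27.9% had 2 or more annotated transcripts, against 21.6% of all. That excess was not present in each length class. In genes of over 16000 bp the shares were 58.1% of target genes and 44.5% of all, whereas up to 2000 bp they were 2.45% and 4.37% and from 2000 to 4000 bp 16.4% and 20.0%.

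The target gene of highest rank was LOC123069090 on chromosome 1A, where the region 575562708 to 575563167 had 132 fragments in replicate 1 and 93 in replicate 2, with the identical summit 542 bp inside a gene of 1489 bp. Its folds were 37.9 and 31.8, and its −log10 q values 168 and 114. Far lower was the next in rank, LOC123153482 on 7A (560371953 to 560372274), which had 29 and 26 fragments, folds of 18.3 and 16.9 and a summit 1118 bp outside the gene. LOC123103519 on 5A (386139221 to 386139663) had 31 and 21 fragments and folds of 17.1 and 12.8, 628 bp inside the gene. LOC123107497, also on 5A (530128569 to 530128893), had 25 and 18 fragments and folds of 15.8 and 12.7. LOC123060681 on 3A (133593956 to 133594643) had 54 and 44 fragments on a background of 2.90 and 2.27, which gave folds of 14.1 and 13.8.

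In a few of the leading target genes the lists differed more. LOC123068741 on 1A (571214436 to 571214767, 222 bp outside the gene) had 31 fragments in replicate 1 and 13 in replicate 2, and folds of 19.1 and 9.39. LOC123129487 on 6A (93673584 to 93673756) had 28 and 14 fragments and folds of 15.5 and 9.49. At LOC123146968 on 7A (387803335 to 387804088), by contrast, both lists had 23 fragments, 7298 bp inside a gene of 14714 bp. The first 20 target genes lay at 18 regions, since LOC123128227 and LOC123128226 share 1 on 6A and LOC123104961 and LOC123104962 share 1 on 5A. Over these 20, folds were at least 9.13 in replicate 1 and 8.80 in replicate 2, fragments at least 14 and 13, and 11 of the genes had the summit in their body, at 10 regions. The gene table gives none of the 20 a common name.

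Common names or synonyms were given for 58 A-subgenome genes, and 2 of them were target genes. LOC543315 on 7A encodes a profilin (PRO1), a small protein that binds actin. Its region stood at a mean percentile rank of 83.6 among the members by fold, with summits 2 bp apart in the lists. LOC123103210 on 5A carries the synonyms E1 and UBA2 and belongs to the ubiquitin-activating enzymes, which start the attachment of ubiquitin to proteins. Its rank was 72.3, with 15 fragments in replicate 1 and 11 in replicate 2, 161 bp outside the gene.

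Only 6 target genes held 2 members each, and each was over 20000 bp long with both summits in its body. Since regions within 10 kb of another were left out, 2 members of a gene had to lie over 10 kb apart, which limits such pairs to long genes and keeps their number low. These genes were named after their values were seen. LOC123188652 on 2A, a gene of 37149 bp, had regions at 355048629 to 355049124 and 355068344 to 355068669, with 10 and 12 fragments in replicate 1. LOC123103283 on 5A, of 21268 bp, had 13 and 17 fragments at regions 4134 and 3948 bp from its edges. LOC123106094 on 5A had 14 and 9, LOC123127392 on 6A 14 and 8, LOC123085915 on 4A 8 and 14, and LOC123102881 on 5A 12 and 9. None of these 12 regions had over 17 fragments in replicate 1.

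The members of highest fold were mostly away from genes. Of the 100 members of highest mean rank of fold 13 lay at a gene, and of the first 20 there were 2. The highest of all lay on 4A (397003547 to 397003732, 186 bp wide), with 513 fragments in replicate 1 and 364 in replicate 2 and no protein-coding gene within 353661 bp. A region on 5A (616096205 to 616096561) had 48 and 43 fragments and folds of 26.1 and 24.7. It lay 2662 bp from LOC123107970, just beyond the 2000 bp window. A region on 3A (654017943 to 654018353) had 53 and 57 fragments and folds of 23.0 and 25.2, 4765 bp from LOC123058952. It was the only 1 of the 5 leading regions away from genes that was higher in replicate 2 than in replicate 1.

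The other leading regions away from genes were farther from them. On 6A, 600047433 to 600047885 had 78 and 54 fragments and folds of 25.4 and 23.5, and its midpoint lay 15.6 kb from that of the next member. On 2A, 686441910 to 686442214 had folds of 24.5 and 21.7, 113671 bp from a gene. The leading member of 7A (561706128 to 561706426) had folds of 24.7 and 19.7, 87316 bp from a gene. Of the 7 leading members, 1 on each chromosome, that of 1A alone lay at a gene.

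At 3 members many fragments gave a low fold, because the local background in replicate 1 was over 10 fragments. On 1A, 584027495 to 584027773 had 289 fragments in replicate 1 and 202 in replicate 2 on a background of 102 and 80.5, for folds of 2.81 and 2.49. A second region on 1A (584010606 to 584010879) had 132 and 99 fragments and folds of 2.04 and 2.04. On 3A, 60896424 to 60896965, 3567 bp inside LOC123060277, had 159 and 117 fragments and the lowest folds of any member.

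The distance of 10 kb split some neighbouring regions closely. Just inside it was a pair on 2A, 219975550 to 219975923 and 219985713 to 219986180, with midpoints 10210 bp apart, 9 fragments each in replicate 1 and replicate 1 folds of 5.67 and 4.43. Just outside it was a region on 5A (653246747 to 653247010), 9565.5 bp from its neighbour, with folds of 6.32 in replicate 1 and 6.85 in replicate 2. Another on 5A (647413247 to 647413490), 9529.5 bp from its neighbour, had 68 and 46 fragments and folds of 29.7 and 23.0, above the replicate 1 fold of the leading 5A member. The median distance of a member from the nearest mock-free region was 1036 kb (quartiles 339 and 2318 kb), and 55 members had one within 20 kb. Of these, 10 lay between 112056 and 429580 on 1A, spaced 11418 to 18551.5 bp from their nearest neighbours. They had 19 to 58 fragments in replicate 1 and no protein-coding gene within 713434 bp. Of the members of 1A, 8 lay within 2000 bp of a ribosomal RNA gene. The median replicate 1 fold of all 9 members at such genes, 8.70211, was that of the first of these 10. The overlap of the 2 sets was not counted. Isolation was not from all peaks: 35 members had a shared region with a mock peak within 10 kb, 205 a peak of replicate 1 alone and 37 a peak of replicate 2 alone.

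Along the chromosomes the members were spread more evenly than genes. The outer 10% at each end held 316 members (26.1%, Wilson 23.7 to 28.7%) and 38.4% of the A-subgenome protein-coding genes. Between 40 and 50% of the way to the far end from the nearer one lay 176 members (14.5%) and 8.33% of the genes. Members at genes numbered 13.8 per 1000 genes in the outer 10% and 33.7 per 1000 genes in that central part. Genes were also longer there, with a median of 3779 bp against 2707 bp in the outer 10%, and the part of gene length in the difference was not tested. The share of members at a gene was 55.4% (49.9 to 60.8%) in the outer 10% and 52.8% (45.5 to 60.1%) in the centre, with 63.2% between 10 and 20%. Members away from genes had 28.0% in the outer 10% and those at genes 24.8%, with overlapping intervals.

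**Figure D4:**
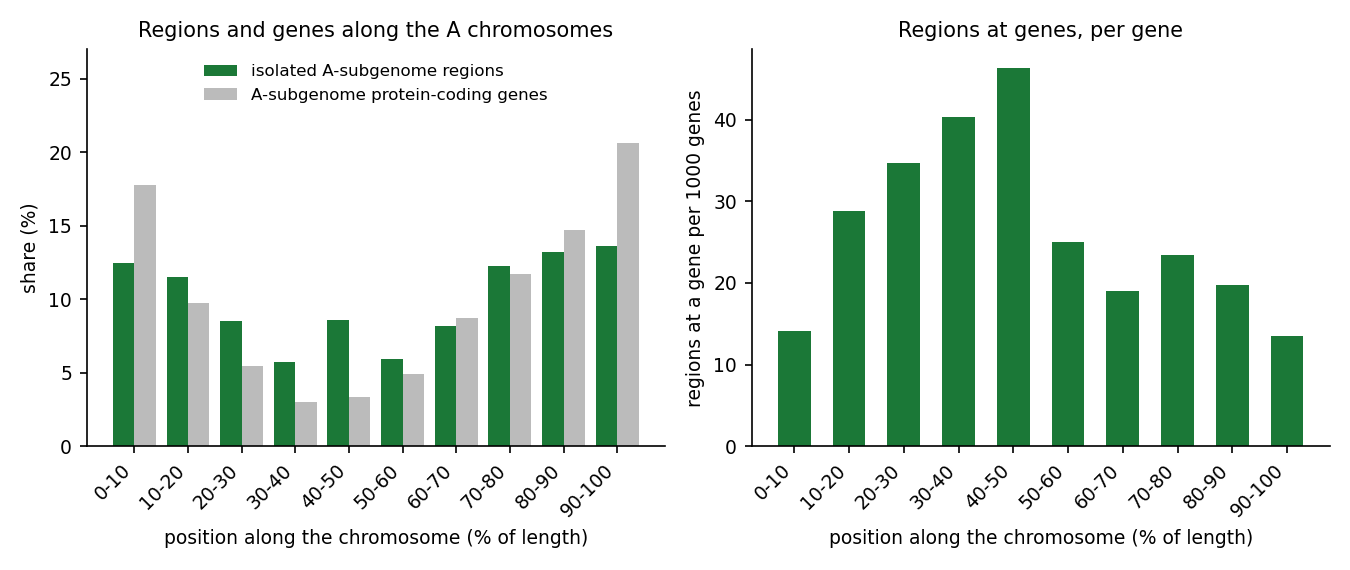
Left, the share of the isolated A-subgenome regions (green) and of A-subgenome protein-coding genes (grey) in each 10% of the chromosome's length, over the 7 A chromosomes. Right, regions at genes per 1000 genes in the same windows, which was 46.3 between 40 and 50% of the length and 14.1 and 13.5 in the first and last window.

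By chromosome the members numbered 164 on 1A, 202 on 2A, 179 on 3A, 168 on 4A, 181 on 5A, 143 on 6A and 173 on 7A. Per 100 Mb this was from 22.3 on 4A to 27.4 on 1A, and per 1000 genes from 33.8 on 7A to 40.0 on 1A. Without the 10 closely spaced members at the start of 1A, that chromosome had 37.6 per 1000 genes, below the 38.1 of 6A, and 25.7 per 100 Mb. The share at genes was lowest on 6A (50.3%, Wilson 42.3 to 58.4%) and highest on 4A (65.5%, 58.0 to 72.2%), and the intervals of these overlapped narrowly. Median fragments in replicate 1 were 10 or 11 on each of the 7 chromosomes, so height differed little between them. The longest stretch without a member was 43.1 Mb, on 6A.

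Set beside the other subgenomes, the A regions were in between in their share at genes and ahead of both in that share relative to gene cover, but not in their number. Isolated mock-free regions lay at genes in 58.3% of 1210 on A, 52.8% of 1377 on B (Wilson 50.2 to 55.4%) and 61.1% of 1107 on D (58.2 to 63.9%). A was above B in 7 of 7 homoeologous groups and above D in 1 of 7, group 4. Genes with their 2000 bp flanks cover 5.10% of A, 5.22% of B and 6.38% of D. Relative to that cover the share was 11.5 times on A, 10.1 on B and 9.57 on D, and A was above B and above D in 7 of 7 groups each. Near edges the corresponding ratios were 20.4, 17.1 and 17.6. Density per 100 Mb was lower on A, 24.3 against 26.2 on B and 27.7 on D. Per 1000 protein-coding genes there were 36.5 regions on A, 39.2 on B and 32.8 on D, and A was above B in 3 of 7 groups and above D in 5 of 7. Median height was 11 fragments in replicate 1 and 10 in replicate 2 on each subgenome, but tall regions differed in number. Over 20 replicate 1 fragments were found in 13.2% of regions on A (Wilson 11.4 to 15.2%), 17.9% on B (15.9 to 20.0%) and 10.7% on D (9.06 to 12.7%). The subgenome with the most tall regions thus had the lowest share at genes. Chromosomes are not replicates, and the differences and the part of height in them were not tested.

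**Figure D5:**
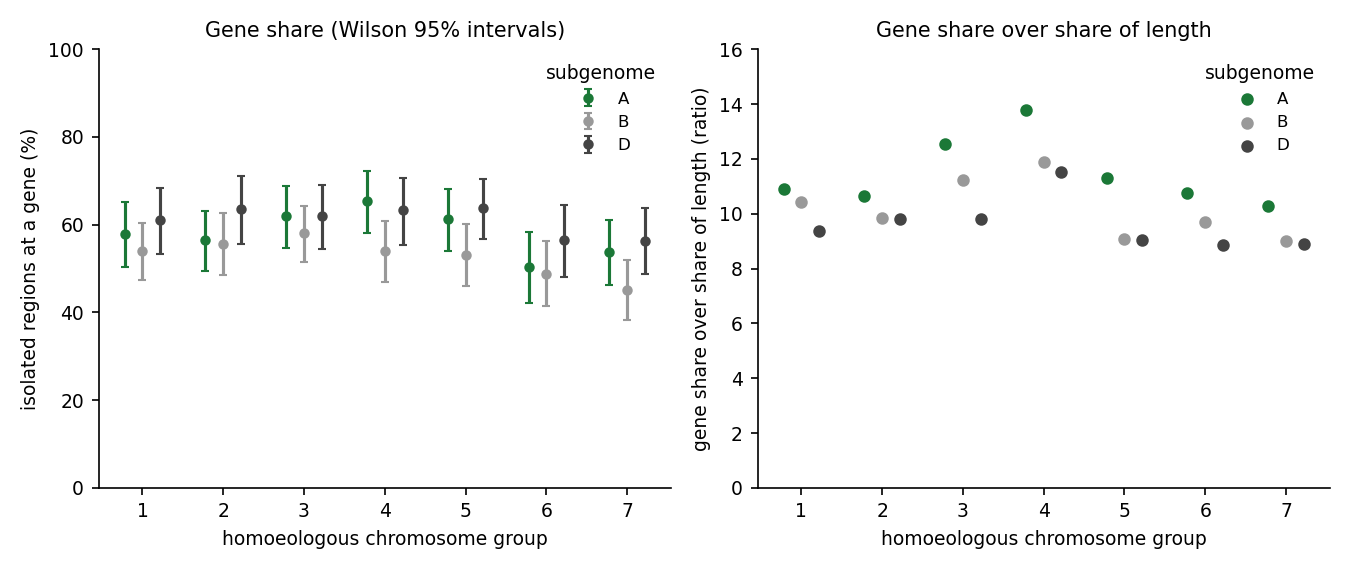
Isolated mock-free regions on the A (green), B (light grey) and D (dark grey) chromosome of each homoeologous group. Left, the share at a protein-coding gene with Wilson 95% intervals. Right, that share divided by the share of chromosome length in or within 2000 bp of a gene, where A is the highest of the 3 in each of the 7 groups, from 10.3 in group 7 to 13.8 in group 4. The ratio compares shares and not numbers of regions.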

How the data were processed

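A narrowPeak list of each library was deposited, and no pooled list was used. Per the submitters' processing notes, bcl2fastq 2.17, Trimmomatic 0.39 and MACS2 2.2.7.1 were used. The aligner, build and calling options were not given in the sources used here. Fold enrichment as deposited is a linear ratio, fragments plus 1 over local background plus 1. The −log10 p and −log10 q values are the authors', with a lowest −log10 q of 1.31 in each list. The deposited score, 10 times the −log10 q rounded down, was not used.

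Fold and −log10 p together give a whole number of fragments at each summit, which was recovered for 100% of peaks in each list within a relative tolerance of 1e-04. The lists held 12848, 8401 and 1754 peaks (replicate 1, replicate 2, mock). No total depth is in the files. The lowest backgrounds were 0.643, 0.49 and 0.36 fragments. They compare the depth of the libraries only if the calling options were the same for each, which is not known.

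Peaks of both replicates were merged at an overlap of at least 1 bp, and the peak of highest fold per list gave the values. Genes came from RefSeq's table for the assembly IWGSC CS RefSeq v2.1, which held 102009 protein-coding genes on 21 chromosomes. As no build is named in the lists, the match was checked: 25.8% of members lay within 500 bp of a gene edge, against 8.43% after a move of 2000 bp and 1.40% after 1000000 bp. Chromosome length was taken as the end of the last gene or peak, and shares of length from positions every 10 bp. Named genes are the 20 target genes of highest mean percentile rank of fold, the 5 leading members away from genes, genes with a common name, the leader of each chromosome and the pairs at 10 kb. Genes with 2 members, that of the widest member and that of a high background were named after their values were seen. Members, gene groups and rules were chosen with earlier results of these data known. Merging, recovery and distances were tested on simulated peaks. The labels do not state separate preparations for the replicates. Python 3.11.15, pandas 2.3.3 and SciPy 1.17.1 were used. The planned motif search, homoeologue matching and gene lists need sequences and product names, which were not used here.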

Additional observations from a re-analysis of the deposited data

How the results depend on the processing

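Over the other settings tried, 50 of 70 values stayed within 1.5 times the count, within the Wilson interval of the share, or within the spread between the lists (0.399 in fold, 24.0 bp in width). Changing the overlap, the isolation distance or set, the mock margin or the point that stands for a region moved none. Requiring a −log10 q of 5 or more gave 591 regions, which met 500 of the members, and 281 target genes, of which 236 are among the 757. It gave a gene share of 44.5%, an edge share of 21.3%, a median fold of 7.54 and a median width of 380 bp. With lists of equal length, cut to that of the mock, there were 73 regions, which met 54 of the members, and 7 target genes, and the gene share was 9.59%, the edge share 1.37%, the end share 30.1% and the median fold 14.9. The 274 mock peaks on A, which were not filtered for isolation, had a gene share of 15.0% (Wilson 11.2 to 19.7%). No interval was made for the 73 regions, so the 2 shares are not ranked. Taller peaks were kept by construction with the −log10 q limit and with the cut lists. Each list alone gave 1353 to 2039 regions, a gene share of 51.9 to 56.9%, an edge share of 22.5 to 24.5% and a median width of 235 to 244 bp, against 1210, 58.3%, 25.8% and 320 bp from both. The higher count, 2039, was without replicate 2, and single peaks are narrower than merged ones by construction. Gene windows of 500 and 5000 bp gave 53.2 and 63.5%, and the outer 20% of chromosomes held 50.8%. Of the first 20 target genes, 20 remained with −log10 q of at least 5 and 6 with lists of equal length. The motif and homoeologue comparisons were not run. No paired analysis was possible because only 1 mock library exists here and no result comes from a test between groups. At low heights the absence of a mock peak may show little, depending on the ratio of mock to replicate 1 fragments assumed. At the median ratio of the regions with a mock peak, 297 of 1210 members would have had the 5 fragments of the mock's lowest peak on A. At a higher ratio more members would.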

Other observations

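Some members lay at non-coding genes of the A chromosomes, none of which entered the counts above. Within 2000 bp of a tRNA gene were 21 members (1.74%, Wilson 1.14 to 2.64%), against 0.0792% of the length, and 12 of them were at no protein-coding gene. On 2A a pair at TRNAR-ACG genes, 339946574 to 339946875 and 339930211 to 339930582, had 37 and 32 fragments in replicate 1 and 19 and 18 in replicate 2. Ribosomal RNA genes had 9 members within 2000 bp (0.744%, against 0.0196% of the length), 8 of them on 1A, with a median of 37 fragments in replicate 1. At the tRNA members that median was 16, and over all members it was 11. Both sets were thus taller at the median, though some tRNA members had 9 fragments.

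Long non-coding RNA genes had 55 members within 2000 bp (4.55%, Wilson 3.51 to 5.87%, against 0.925% of the length) and pseudogenes 48 (3.97%, against 1.31%). Of these, 43 and 39 were at no protein-coding gene, so they add to the places described. Genes for snoRNA and snRNA had 2 members each. The second member of LOC123102881, on 5A (239991232 to 239991479), also lay 603 bp from a TRNAS-UGA gene.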
